A study of Mus musculus with 9 samples.

Results

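Among the 6 libraries of retinal cells that received an Olig factor, 3 held far more reads of the nuclear RNA Malat1 than the others, and every gene other than Malat1 and Gm37376 was compared between those sets. A library was called Malat1-rich where Malat1 took more than 5% of its counts and Malat1-poor otherwise. Olig2 replicate 2 (11.7%, 95% Wilson interval 11.7 to 11.8), Olig2 replicate 3 (6.15%, 6.13 to 6.17) and Olig3 replicate 2 (8.54%, 8.52 to 8.56) were rich. Olig2 replicate 1 (2.65%, 2.64 to 2.67), Olig3 replicate 1 (3.03%, 3.02 to 3.05) and Olig3 replicate 3 (3.12%, 3.11 to 3.13) were poor. The member nearest the threshold on the rich side thus held 6.15% and on the poor side 3.12%. The intervals cover counting error only, since PCR copies are not independent molecules. The series has 9 libraries in all, and the 3 GFP libraries (2.66 to 4.14% Malat1) are given as the background. Of 50764 genes in the count table, 12003 had a mean of at least 5 CPM (counts scaled to a common library size of 1e+06) over the 6 libraries and were compared. The sets were cut by the libraries' own reads and not by a treatment, so their differences are described with no p-value.

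All libraries came from adult male wild-type mice whose optic nerve had been crushed and whose vitreous had been injected with 1.5 µL of AAV2 coding for GFP, Olig2 or Olig3, each for 14 days. Both factors bind DNA through a helix-loop-helix domain and act in the developing nervous system, and AAV2 from the vitreous reaches ganglion cells and other inner retinal cells. Cells were enriched on magnetic beads for CD90.2, the Thy1 antigen of ganglion cells, and green cells were picked by hand. The labels give the number of cells per library as 10 to 15, 15 to 20 or 10 to 20 in different places, and they do not say whether the libraries came from separate animals. Poly-A RNA was copied with a SMART-Seq HT kit over 20 cycles of PCR.

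Malat1 is a long noncoding RNA of nuclear speckles and one of the most abundant nuclear transcripts of neurons. Its mature 3′ end is cut by RNase P after an A-rich tract written in the genome and folds into a triple helix in place of a poly-A tail. Because it stays in the nucleus while most messenger RNA is cytoplasmic, its share of reads is often read as a mark of how much nuclear RNA a library holds. Malat1 lies at chr19 5795690 to 5802672 on the minus strand of mm10, and Gm37376, an unspliced model on the other strand, lies at 5801941 to 5802393 inside it. Over the 9 libraries the counts of Gm37376 were 0.941 to 1.02 times those of Malat1. No source used here gives the strand setting of the counting, so reads of the pair cannot be told apart.

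The sequence that follows is the stretch of the Malat1 transcript around its longest run of A, chr19:5795948-5796039 on the minus strand of mm10, with the run of 12 A in capitals. It is shown because Malat1 set the libraries apart and poly-A RNA was what the libraries were made from. The run begins at base 6674 of the 6983 bases of the annotated transcript and ends 298 bases before its annotated end.
Malat1: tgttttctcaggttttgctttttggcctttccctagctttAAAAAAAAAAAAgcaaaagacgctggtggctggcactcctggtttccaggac

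The coding sequences below belong to a called gene from each of the rod, respiratory and ribosomal lists described below, and they are shown as examples of those lists. They are from GENCODE release M21 on mm10, with the start and the stop codon in capitals. Gngt1 (chr6 3993792 to 3997436, plus strand) codes for the 74 residues of the gamma subunit of rod transducin in 225 bases of a 1183-base transcript. Atp5k (chr5 108433244 to 108434448, minus strand) codes for the 71 residues of subunit e of ATP synthase in 216 bases of a 371-base transcript. Rpl41 (chr10 128548114 to 128549305, minus strand) codes for a protein of the large ribosomal subunit with 25 residues in 78 bases of a 582-base transcript.
Gngt1: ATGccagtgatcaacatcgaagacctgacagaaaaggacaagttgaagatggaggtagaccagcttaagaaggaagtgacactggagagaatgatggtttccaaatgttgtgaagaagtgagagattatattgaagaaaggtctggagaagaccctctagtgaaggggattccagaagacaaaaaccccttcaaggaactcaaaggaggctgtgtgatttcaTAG
Atp5k: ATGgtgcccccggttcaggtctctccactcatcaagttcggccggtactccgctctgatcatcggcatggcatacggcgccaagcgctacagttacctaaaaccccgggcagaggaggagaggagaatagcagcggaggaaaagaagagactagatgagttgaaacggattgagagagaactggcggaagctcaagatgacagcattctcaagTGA
Rpl41: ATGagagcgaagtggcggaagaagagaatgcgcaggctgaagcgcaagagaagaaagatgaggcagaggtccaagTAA

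The rich libraries were closer to each other than the poor ones were. Total counts ranged from 5355691 to 6979851 over the 9 libraries. At least 1 count was found for 21338, 20718 and 20933 genes in the rich libraries, for 18184 in Olig2 replicate 1, 16188 in Olig3 replicate 1 and 14434 in Olig3 replicate 3, and for 18425 to 18830 in the GFP libraries. At a minimum of 10 counts the sets overlapped, with 13558 to 14864 genes in the rich libraries and 11919 to 14872 in the poor ones. Across genes, Pearson's r of log2 CPM between 2 rich libraries was 0.914 to 0.932, also between the factors, against 0.599 to 0.675 between 2 poor ones and 0.817 to 0.851 between 2 GFP libraries. Between a poor and a rich library it was 0.690 to 0.889, and between a GFP and a rich library 0.824 to 0.869. The poor Olig2 library was nearer to the rich libraries (0.852 to 0.889) than to the poor Olig3 libraries (0.672 and 0.675), so the low values all involve a poor Olig3 library. Genes are not independent replicates, and these values describe the libraries only. The chi-square per degree of freedom between rich libraries was 13.5 to 16.1, so no 2 of them agreed within counting noise.

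**Figure D1:**
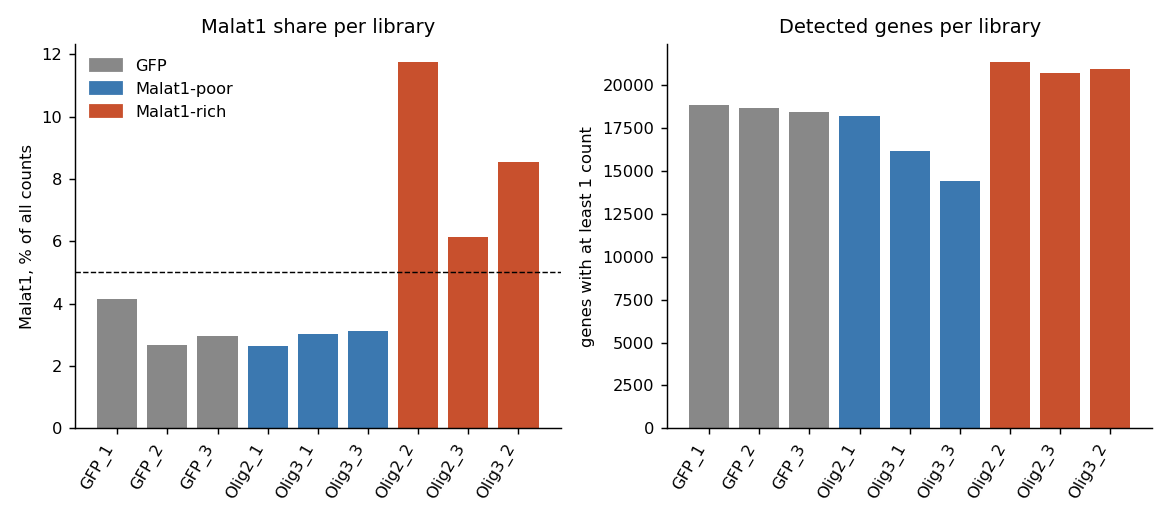
Left, Malat1 as a percentage of all counts in each of the 9 libraries, with the threshold of 5% as a dashed line. Right, the number of genes with at least 1 count. The 3 rich libraries (6.15 to 11.7%) each detected 20718 or more genes and the 3 poor ones between 14434 and 18184.

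Each group carried its own factor. Olig2 had 114 counts in the poor Olig2 library and 97 and 21 in the rich ones, against 0 in every GFP library and 0 to 6 in the Olig3 libraries. Olig3 had 172 and 597 counts in the poor Olig3 libraries and 113 in the rich one, against 0 to 7 in the Olig2 libraries and 0 to 40 in the GFP libraries. Olig1 had 0 or 1 count throughout. Neither set thus held 1 factor alone. Within each factor the poor libraries had more counts of it than the rich ones, but on the TMM-scaled CPM described below they did not all stand higher: Olig2 had 18.04 CPM in its poor library and 25.6 and 4.18 in the rich ones, and Olig3 had 28.1 and 97.1 in its poor libraries and 31.3 in the rich one. The files do not say whether counts of Olig2 and Olig3 come from the vector or the cell's own gene.

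In what follows, a gene is called higher or lower where the 3 libraries of 1 set all lay beyond the 3 of the other and the means of log2 CPM differed by at least 1, which is 2-fold. CPM were scaled by TMM, a factor that matches the bulk of genes between libraries, computed without Malat1 and Gm37376. By this rule 619 genes were higher in the rich set (5.16% of those compared) and 274 were lower (2.28%), together 7.44%. Without the 2-fold minimum the sets were apart for 1166 genes on the higher side (9.71%) and 937 on the lower side (7.81%). The median difference of all 12003 genes was 0.14 on the log2 scale, rich minus poor. The balance of the 2 directions depended on the scaling. Scaled by library totals, which include Malat1, 159 genes were higher and 1201 lower, with a median of -0.37. Scaled by totals without Malat1 and Gm37376 the counts were 293 and 659, with a median of -0.16. The differences below are therefore to be read against the median of all genes.

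The GFP libraries were on the side of the poor set for only some of these genes. Of the 619 higher genes, 194 had all 3 GFP libraries below the lowest rich library, which held for 12.2% of all genes compared. Those 194 genes had a median transcript length of 886 nt and a median level of 32.3 CPM. The other 425 had a median length of 2378 nt and a median level of 11.9 CPM. Over all genes compared, the median length was 2641 nt and the median level 29.4 CPM. Of the 274 lower genes, 25 had all GFP libraries above the highest rich library, which held for 9.24% of all genes. Seen from the other side, all 3 GFP libraries were above the highest poor library in 270 of the 619 higher genes (43.6%, against 8.30% of all genes), and below the lowest poor library in 157 of the 274 lower genes (57.3%, against 8.95%). The genes were picked for the values of both the rich and the poor libraries, so the shares on either side are in part fixed by the choice. The split into 194 and 425 genes rests on the same values. With the GFP libraries joined to the poor set, 169 genes were higher in the rich libraries (1.41%) and 19 lower (0.158%).

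**Figure D2:**
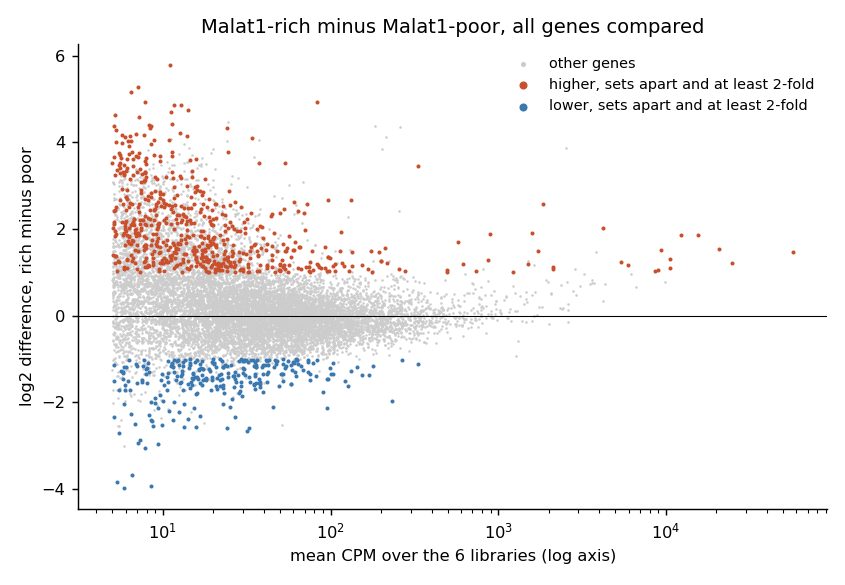
Difference of mean log2 CPM, rich minus poor, against the mean CPM over the 6 libraries (log axis) for the 12003 genes compared. Red points are the 619 genes called higher and blue points the 274 called lower. The higher genes sit mostly at low levels, with a separate group of abundant ones at the right.

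Among the 30 gene lists, that of rod photoreceptor genes had the highest summed level in the rich set, in the poor set and in the GFP libraries alike. Rods see dim light: light leads to activation of the G protein transducin, which switches on a phosphodiesterase that closes the cyclic-nucleotide channels of the outer segment. Rods are by far the most numerous cells of the mouse retina, while the labels name the picked cells as ganglion cells. The 20 rod genes of the list summed to 200090, 238373 and 277433 CPM in the rich libraries (mean 238632 ± 38672 SD, n = 3), to 99181, 119031 and 75383 in the poor ones (97865 ± 21854) and to 57128 to 87193 in the GFP libraries. Every rich library was thus above every other. As a share of all counts the list took 13.9, 17.7 and 18.7% in the rich libraries and 9.76, 11.3 and 7.84% in the poor ones, apart as well. In bulk libraries, more rods and more RNA per rod cannot be told apart. All 20 genes were compared, 9 were higher (45%, against 5.16% of all genes) and none lower, and 19 had a difference above 0. The list's median was 0.75, and it was 0.25 to 0.86 over the 7 scalings. It was 0.83 within the Olig2 libraries and 1.03 within the Olig3 libraries.

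Gngt1, the gamma subunit of rod transducin whose coding sequence is printed above, had 6104, 6804 and 7367 CPM in the rich libraries and 1730, 1940 and 1383 in the poor ones. The GFP libraries had 1043 to 1541 CPM, at the level of the poor set. The fold was 4.01. Pde6g, the inhibitory gamma subunit of the rod phosphodiesterase, had 15462 to 24332 CPM in the rich set against 4031 to 6588 in the poor set, a 3.61-fold difference. Sag, the rod arrestin that ends the light response, was 2.89-fold higher and Gnb1, the beta subunit of transducin, 2.93-fold higher. Gnat1, the alpha subunit of transducin, was 2.32-fold higher.

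Rod genes did not all differ to the same degree. Pdc, Rcvrn and Prph2 were 2.08-, 2.19- and 2.04-fold higher. Rp1, a protein of the outer segment axoneme, differed by -0.11, with 1123 to 1944 CPM in the rich set and 1299 to 1847 in the poor set. Slc24a1, the rod's sodium-calcium exchanger, differed by 0.10 and Pde6b, the catalytic beta subunit of the phosphodiesterase, by 0.16. The 9 rod genes called higher had transcripts of 900 to 3110 nt with a median of 1652 nt. The other 11 had transcripts of 1517 to 5213 nt with a median of 2422 nt, and their differences ran from -0.11 to 0.76.

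**Figure D3:**
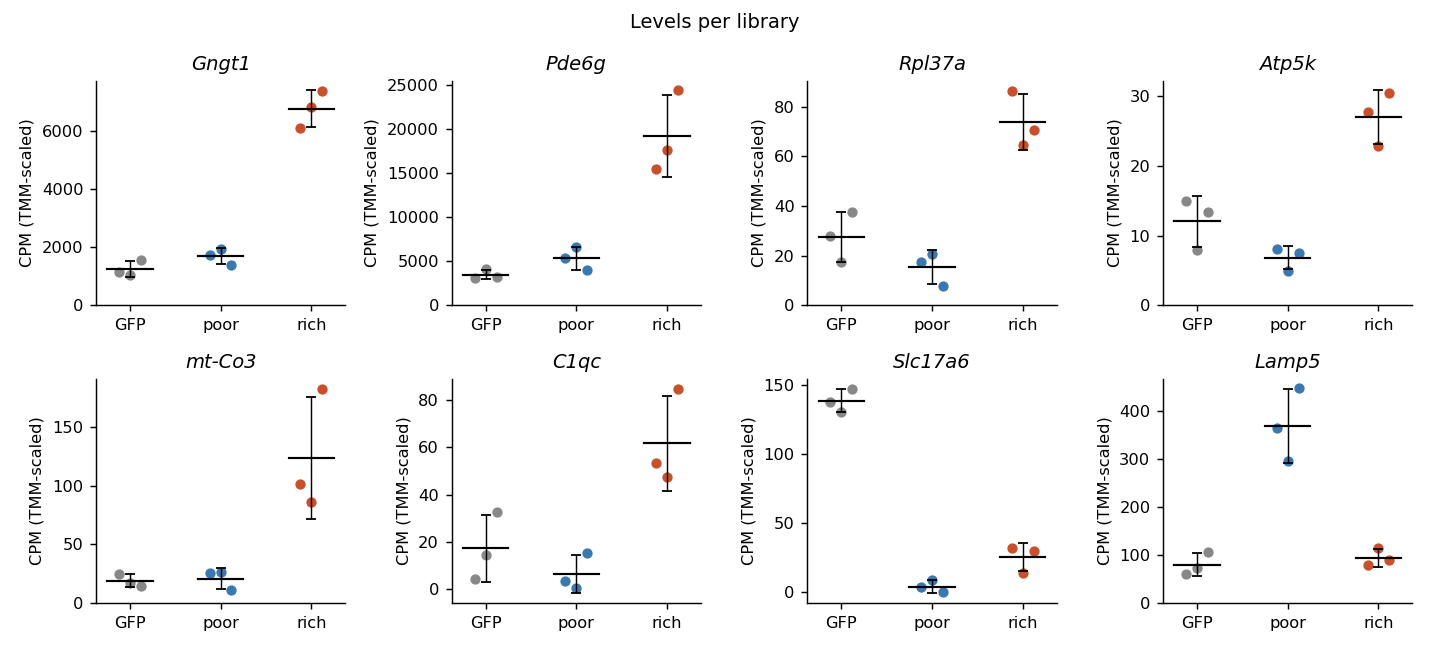
TMM-scaled CPM of 8 genes in each library (points), with the mean and SD of the GFP, poor and rich sets (n = 3 each). For Gngt1, Pde6g, Rpl37a, Atp5k and mt-Co3 the GFP libraries lie with or near the poor set, for Slc17a6 they lie above both sets, and for Lamp5 the GFP libraries lie at the level of the rich set.

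Genes of the respiratory chain were higher in the rich set, both those read from the mitochondrial genome and those read in the nucleus. The chain passes electrons from complexes I to IV to oxygen, and ATP synthase uses the gradient that results. Of the mitochondrially encoded proteins, 10 of 13 were compared, 4 were higher (40%, against 5.16% of all genes) and none lower. The 13 genes summed to 32351, 39047 and 37027 CPM in the rich libraries and to 23466, 26394 and 14236 in the poor ones. The GFP libraries had 15236 to 21038. As a share of all counts the sets overlapped, with 2.26, 2.90 and 2.49% against 2.31, 2.51 and 1.48%. The list's median difference was 0.74, and 0.67 and 0.98 within the Olig2 and the Olig3 libraries.

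The 4 called mitochondrial genes covered complexes III, IV and V. mt-Atp6, a subunit of ATP synthase, had 104, 79.2 and 66.9 CPM in the rich libraries, 20.1, 20.1 and 9.43 in the poor ones and 16.0 to 22.1 in the GFP libraries. mt-Co3 and mt-Co2, subunits of cytochrome oxidase, were 5.94- and 3.40-fold higher, and mt-Cytb of complex III was 2.38-fold higher. The mitochondrial genes also differed among themselves. mt-Nd5 of complex I had 1989 to 2848 CPM in the rich set and 2111 to 3610 in the poor set, a difference of -0.15. Mitochondrial genes are cut from shared precursors, and neighbours such as mt-Atp6 and mt-Co3 abut, so reads at the joints may belong to either.

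All 70 nuclear genes of oxidative phosphorylation were compared. Of these, 22 were higher (31.4%, against 5.16% of all genes), none was lower and 63 had a difference above 0. Their summed level was 14097, 15296 and 15254 CPM in the rich libraries, 11139, 11191 and 9895 in the poor ones and 10223 to 10967 in the GFP libraries. As a share of all counts these sets overlapped too, with 0.982, 1.14 and 1.03% against 1.10, 1.06 and 1.03%. Atp5k had 27.8, 22.9 and 30.5 CPM in the rich libraries against 8.07, 4.91 and 7.48 in the poor ones, a 3.97-fold difference. Uqcrq and Uqcr10, small subunits of complex III, were 2.78- and 2.86-fold higher, and Ndufa7 of complex I was 2.96-fold higher. In 18 of the list's genes the rich libraries were also above every GFP library by the same rule. The 22 called genes had a median transcript of 582 nt and the other 48 one of 920 nt. The whole list had a median transcript of 744 nt and a median difference of 0.77. All compared genes of 500 to 1000 nt had a median difference of 0.45, with 12.2% called higher. The part of length in the list's difference was not tested.

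Cytosolic ribosomal protein genes showed the same direction. These 80 genes code for the protein parts of the ribosome, and 77 were compared. Of those, 27 were higher (35.1%, against 5.16% of all genes) and none lower. The median difference was 0.62, with 0.74 and 0.53 within the Olig2 and Olig3 libraries, and the list's median transcript was 778 nt. The summed level was 9967 ± 1260 CPM in the rich set and 7650 ± 652 in the poor set, and the GFP libraries, at 9279 ± 1399, overlapped the rich set. This direction of the sum depended on the scaling. As a share of all counts the list took 0.713, 0.822 and 0.579% in the rich libraries and 0.780, 0.771 and 0.719% in the poor ones. As a share of counts without Malat1 and Gm37376 it took 0.935, 0.937 and 0.698% against 0.823, 0.821 and 0.765%, so that the rich Olig3 library was below every poor one. Rpl37a had 86.4, 64.4 and 70.5 CPM in the rich libraries, 17.4, 20.8 and 7.64 in the poor ones and 17.4 to 37.4 in the GFP libraries, a 4.83-fold difference. Rpl36 was 4.03-fold, Rpl41 3.68-fold and Rps29 3.62-fold higher. With the GFP libraries joined to the poor set, 13 ribosomal protein genes were still apart. Ribosomal protein genes have many near-identical processed pseudogenes, and no source used here says how shared reads were counted, so single members are uncertain. Over the 7 scalings the list medians stayed above 0, at 0.24 to 0.84 for the mitochondrially encoded, 0.28 to 0.87 for the nuclear respiratory and 0.13 to 0.72 for the ribosomal protein genes.

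Glycolysis was split between a few abundant enzymes and the rest. Rods and other photoreceptors are known for a high glycolytic rate. Gapdh had 7134, 7547 and 8047 CPM in the rich set against 4039, 3224 and 2508 in the poor set, a 2.33-fold difference, and Eno1 was 2.10-fold higher. These 2 made up 10% of the list, against 5.16% of all genes called higher. The other 18 of the 20 genes compared were not called, although Aldoa (0.97) and Pkm (0.82) were above the median. The list summed to 46418, 46432 and 48912 CPM in the rich libraries, 31112, 28557 and 22324 in the poor ones and 22848 to 31796 in the GFP libraries. As a share of all counts the sets were apart as well, at 3.24, 3.45 and 3.29% against 3.06, 2.71 and 2.32%. The GFP libraries had 2.44 to 3.24%. The list's median was 0.16, close to the 0.14 of all genes. Its sign turned with the setting: it was -0.34 with library totals, -0.14 with totals without Malat1 and Gm37376, and -0.01 within the Olig2 libraries.

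Short transcripts stood higher in the rich set, and the order did not rest on the lists above. This measure was chosen after seeing the data. The length is the median over a gene's annotated transcripts, known for 12002 of the 12003 genes. The median difference was 0.46 for 188 genes under 500 nt, 0.45 for 1067 genes of 500 to 1000 nt, 0.20 for 2874 genes of 1000 to 2000 nt, 0.10 for 4865 genes of 2000 to 4000 nt and 0.00 for 3008 genes of 4000 nt and over. The share called higher was 23.4% in the shortest class and 3.16% in the longest. With the rod, ribosomal and respiratory lists left out, the medians of the protein-coding genes were 0.51, 0.45, 0.20, 0.10 and -0.00 in the same order.

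The order by length held within each factor and at the higher levels. Within the Olig2 libraries the medians from the shortest to the longest class were 0.39, 0.30, 0.02, -0.07 and -0.07, and within the Olig3 libraries 0.50, 0.47, 0.26, 0.17 and 0.02. Among genes of 20 to 100 CPM they were 0.67, 0.35, 0.14, -0.00 and -0.12. Over 100 CPM they were 0.23, 0.41, 0.03, -0.08 and -0.20, where the shortest class had only 14 genes. Among genes of 5 to 20 CPM there was no such order, with 0.46 in the shortest class and 0.64 to 0.65 in the others.

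The same measure can be read library by library. The median log2 CPM of genes under 1000 nt minus that of genes of 4000 nt and over was -0.05, -0.02 and -0.18 in the rich libraries. It was -0.44, -0.51 and -0.68 in the poor ones and -0.40, -0.34 and -0.21 in the GFP libraries. All rich libraries were thus above all others, with GFP replicate 3 next. Base composition moved along: the median difference was -0.08 for genes under 40% GC and 0.34 for those of 55% and over. The higher genes had a median GC content of 52.9% and the lower ones 47.5%, against 49.9% for all. Length and GC content are linked across genes, and their separate parts were not tested.

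**Figure D4:**
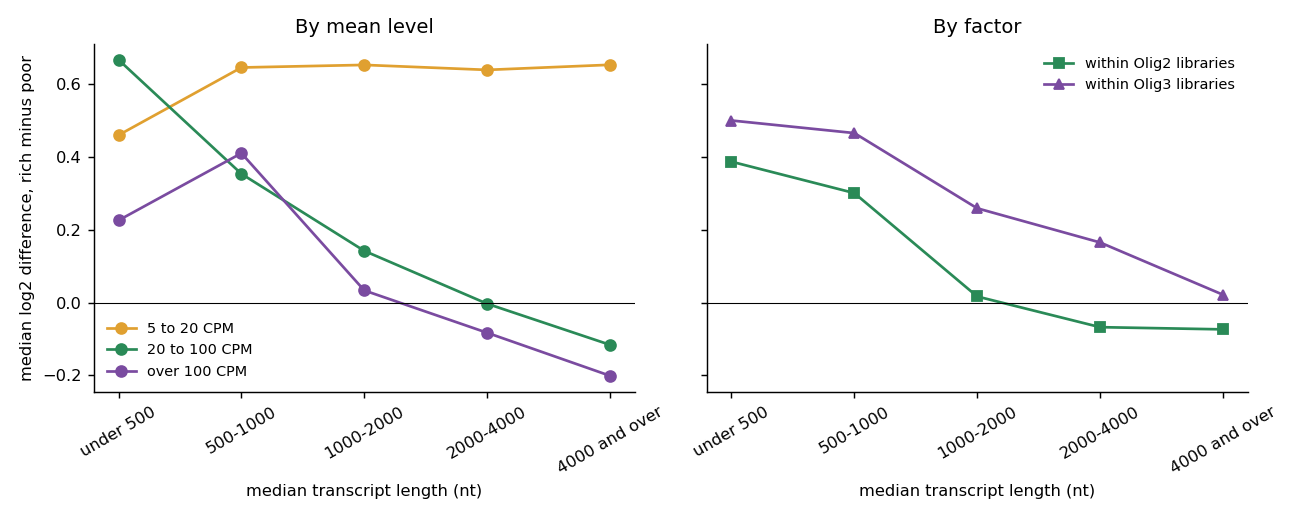
Median log2 difference, rich minus poor, for genes in 5 classes of transcript length (nt). Left, by mean level over the 6 libraries; right, within the Olig2 libraries (2 rich, 1 poor) and within the Olig3 libraries (1 rich, 2 poor). The medians fall with length in both factors and in genes of 20 to 100 CPM, and are flat at 0.64 to 0.65 in genes of 5 to 20 CPM over 500 nt.

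Genes at low levels had the highest median difference, and it was larger within the Olig3 than within the Olig2 libraries. Genes of 5 to 20 CPM had a median difference of 0.64, those of 20 to 100 CPM of 0.03 and those of 100 CPM and over of -0.04. The first value was 0.82 within the Olig3 libraries and 0.04 within the Olig2 libraries. The poor Olig3 libraries are the pair with the fewest detected genes. Without them the median of all genes was -0.02, and of the 619 higher genes 299 were still called, with 1006 called in all against a single poor library. Without them the list medians were 0.92 for rod, 0.72 for nuclear respiratory and 0.62 for ribosomal protein genes, and the difference between genes under 1000 nt and those of 4000 nt and over was 0.36 against 0.46 with all 6 libraries. Other lists moved further: the cone median went from 0.14 to 1.34, that of horizontal cells from 1.25 to -0.84 and that of Müller glia from 0.63 to -0.20.

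The 15 higher genes with the widest gap between the sets were of this kind, at 5.14 to 14.2 CPM on average. Lpl, lipoprotein lipase, had 15.6, 8.16 and 18.9 CPM in the rich libraries and no count in any poor one, so it was at least 83.8-fold higher by a floor of 3 counts over the poor set. Its GFP libraries had 33.7, 0.563 and 37.3 CPM. Bhlhe22, a transcription factor of retinal interneurons, had 13.0, 8.16 and 17.5 CPM against no count, at least 76.3-fold, with 6.24 to 24.1 CPM in the GFP libraries. Rgs4, a regulator of G-protein signalling found in neurons, had 52.9, 8.16 and 22.2 CPM against 1.11, 0.654 and 0, while the GFP libraries ranged from 8.17 to 236 CPM. For these 3 genes at least 1 GFP library was above the highest rich library.

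In 10 of the 15 genes (66.7%) all 3 GFP libraries were above the highest poor library. That held for 43.6% of all higher genes and 8.30% of all genes compared. The 15 genes were picked for low values in the poor libraries, so this share is in part fixed by the choice. Other genes of the 15 also had few counts in the poor set. Rnf217, Slc7a3 (a cationic amino acid transporter), Cxcl13 (a B-cell chemokine), Tbc1d22a, Prss56 (a serine protease of the eye), Rnd3 (a small GTP-binding protein), Mgst1 (a microsomal glutathione transferase) and Slc66a1 (a lysosomal amino acid transporter) were 9.43- to 51.8-fold higher. Each had at least 1 poor library without a count. Mgst1 was higher still in the GFP libraries, at 20.1 to 71.4 CPM against 10.6 to 16.1 in the rich set. Rgs5, a marker of pericytes, had 14.5, 2.79 and 13.9 CPM in the rich set, no count in the poor set and at most 0.996 CPM in the GFP libraries.

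Markers of retinal ganglion cells, the cells named by the labels, were at low levels in both sets and at higher ones in the GFP libraries. Of the 22 genes listed, 16 were compared, 6 were higher in the rich set (37.5%, against 5.16% of all genes) and none lower. The median difference was 1.92 (1.22 within Olig2, 2.18 within Olig3). The list summed to 782, 380 and 632 CPM in the rich libraries, to 336, 296 and 284 in the poor ones and to 1288 to 2471 in the GFP libraries. Slc17a6, the vesicular glutamate transporter of ganglion cells, had 32.5, 13.7 and 30.2 CPM in the rich set, 3.80, 8.83 and 0 in the poor set and 131 to 147 in the GFP libraries. Sncg, a synuclein abundant in ganglion cells, was 7.40-fold higher, Thy1, the antigen of the beads, 5.23-fold and Ebf1, a transcription factor, 3.60-fold.

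Gap43, a growth cone protein that injured ganglion cells make, had 62.1, 29.2 and 30.5 CPM in the rich set, 22.8, 0.491 and 0 in the poor set and 80.0 to 387 in the GFP libraries. Nefl, a neurofilament subunit, had 80.6 to 103 CPM against 21.3 to 55.8 and 171 to 356 in the GFP libraries. It overlaps Nefm on the other strand, so their reads cannot be told apart. Rbpms, which marks nearly all ganglion cells, was not called, with 9, 72 and 0 counts in the poor libraries and 31 to 38 in the rich ones. Pou4f2 had 14, 0 and 3 counts in the rich libraries and none in the poor ones. With the GFP libraries joined to the poor set, none of the list's genes was called and its median was 0.50.

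Microglial markers were higher in the rich set. Microglia are the retina's resident macrophages, and they make the C1q chains of complement. Of 16 listed genes, 13 were compared, 7 were higher (53.8%, against 5.16% of all genes) and none lower, and all 13 differences were above 0. The list's median was 1.98, with 2.63 and 2.28 within the Olig2 and Olig3 libraries. The list summed to 554, 845 and 537 CPM in the rich libraries, to 149, 146 and 206 in the poor ones and to 91.8 to 853 in the GFP libraries, which spanned both sets. C1qc had 53.1, 47.3 and 84.6 CPM in the rich set, 3.64, 0.327 and 15.5 in the poor set and 4.31 to 32.7 in the GFP libraries. C1qa was 3.80-fold, Cx3cr1, a chemokine receptor of microglia, 41.0-fold and Lyz2, the lysozyme of macrophages, 25.1-fold higher. Tmem119, Tyrobp and Itgam were under the level minimum, and P2ry12 overlapped between the sets.

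Other genes of myeloid cells were among the 15 with the widest gap. Cd14, the co-receptor for lipopolysaccharide, had 33.3, 2.98 and 10.5 CPM in the rich libraries and no count in the poor ones, and Cybb, a subunit of the phagocyte oxidase, 13.0, 16.5 and 1.39 CPM against no count. The bounds were 89.3-fold for Cd14 and 68.4-fold for Cybb, and their GFP libraries reached 16.2 and 6.39 CPM. Cfp, properdin of the complement system, was 27.0-fold higher. Hba-a1, an alpha globin of red blood cells, had 2, 276 and 77 counts in the rich libraries and 0 in the 6 others. Alas2, the heme synthesis enzyme of red cells, was 9.31-fold higher. They were the 2 genes called of the 3 red cell genes compared, out of 6 listed. Lcn2, a lipocalin of granulocytes and reactive glia, was 4.32-fold higher and the only call among 2 granulocyte genes compared. Of 5 T cell genes compared only Thy1, which ganglion cells share, was called, and none of 7 B and plasma cell genes was. Over all genes compared 5.16% were called higher and 2.28% lower, so lists this short would hold few calls at that rate. Within the Olig2 libraries the medians of the granulocyte, T cell and B and plasma cell lists were -0.82, -0.46 and -0.75. These markers stand at low levels, and their part in the other differences was not tested.

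Among the lower genes were several of inner retinal interneurons, although the lists fixed for those cells gave few calls. Lamp5, a membrane protein of inhibitory neurons, had 78.2, 115 and 88.8 CPM in the rich libraries and 365, 295 and 448 in the poor ones, a 3.93-fold difference. The GFP libraries had 59.7 to 107 CPM, at the level of the rich set. Gjd2, connexin 36 of the electrical synapses between AII amacrine cells and bipolar cells, had 10.6 to 14.4 CPM against 41.3 to 52.2 and was 3.67-fold lower. Its GFP libraries had 9.21 to 24.4 CPM. Slc6a9, the glycine transporter of glycinergic amacrine cells, was 2.66-fold lower and Prox1, a transcription factor of AII amacrine, horizontal and bipolar cells, 2.33-fold lower.

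The other widest gaps on the lower side ran the same way. Lypd1, a modulator of nicotinic receptors, had 3.44, 9.35 and 7.77 CPM in the rich set, 34.8, 57.6 and 31.1 in the poor set and 0.149 to 3.52 in the GFP libraries. Ppp1r17, a phosphatase inhibitor, was 4.61-fold lower, Slc6a12, a betaine and GABA transporter, 5.42-fold and Heph, a copper ferroxidase, 6.32-fold. Lrrn1, Tafa4, Cidea, Map6d1, Tespa1 and Tmco4 were 5.46- to 11.9-fold lower. Pkp1, a plaque protein of desmosomes, had 3 counts in the rich set and 213 in the poor set, a ratio of 47.4 (95% counting interval 16.0 to 232). Slc15a3 and Tmem132a were 2.93- and 3.08-fold lower and overlap on opposite strands of chromosome 19, so they may be 1 signal. In 14 of the 15 genes (93.3%), all but Pkp1, the 3 GFP libraries were below the lowest poor library. That held for 57.3% of all lower genes and 8.95% of all genes compared. The 15 genes were picked for high values in the poor libraries, so this share is in part fixed by the choice.

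Of 16 bipolar cell genes compared, Gng13, a gamma subunit of ON bipolar cells, was 2.01-fold higher and none was lower, and the median was -0.33. Their sum was 2038, 1879 and 1969 CPM in the rich libraries, 2391, 2528 and 2506 in the poor ones and 1117 to 1229 in the GFP libraries, so the poor set was the highest. Of 12 amacrine genes Slc6a9 was lower, and the sums overlapped. Of 7 horizontal cell genes Prox1 was lower, and the list's median was -0.91 within Olig2 and 2.04 within Olig3. Of 12 cone genes Guca1a, a guanylate cyclase activator that rods share, was 2.25-fold higher, and the median was 0.14. Over all genes compared 5.16% were called higher and 2.28% lower. Lists of 7 to 16 genes would hold few calls at that rate, so these single calls say little about the cell types.

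Genes with very long primary transcripts, such as those of synaptic adhesion, were on the lower side. Of 18 compared, Magi2, a synaptic scaffold, was 2.20-fold lower and none was higher. Over all genes compared 2.28% were called lower and 5.16% higher, so a list of 18 would hold few calls at that rate. Their median was -0.41, with -0.18 and -0.63 within the Olig2 and Olig3 libraries, and it was -0.90 to -0.30 over the 7 scalings. The list's sum was 1065, 1159 and 1068 CPM in the rich libraries, 1250, 1575 and 1616 in the poor ones and 878 to 1373 in the GFP libraries.

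Other nuclear long noncoding RNAs gave no call. Of 17 compared, 2 were apart on the higher and 1 on the lower side without reaching 2-fold. Over all genes compared 7.44% were called, and 9.71% and 7.81% were apart, so a list of 17 would hold few calls at that rate. The list's median was 0.08, against 0.14 for all genes. It was 0.44 within the Olig2 libraries, where 2 genes were called higher against the single poor library, and 0.01 within the Olig3 libraries. Meg3, an imprinted neuronal RNA, had 785, 291 and 459 CPM in the rich set and 273, 471 and 439 in the poor set. Snhg11 had 721 to 1393 CPM in the rich set and 663 to 1214 in the poor set. Neat1, the scaffold of paraspeckles beside Malat1 on chromosome 19, had 153, 172 and 67 counts in the rich libraries and 158, 1 and 111 in the poor ones. Long noncoding RNAs other than Malat1 and Gm37376 took 2.79 to 3.22% of the counts in the rich libraries and 3.18 to 3.89% in the poor ones.

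Proteins of the speckles, where Malat1 resides, showed no call either. Of 22 genes compared none was called, and the median was -0.10. Over all genes compared 7.44% were called, so a list of 22 would hold few calls at that rate. Without the 2-fold minimum, 2 were apart on the higher side and 1 on the lower side. Srsf5, a splicing factor, had 504 to 897 CPM in the rich set and 739 to 897 in the poor set. Srrm2, the large scaffold protein of speckles, had 1067, 687 and 870 CPM in the rich libraries and 401, 546 and 603 in the poor ones, with 422 to 459 in the GFP libraries. Its sets were apart, at a 1.69-fold difference that misses the 2-fold minimum.

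Some genes of the integrated stress response were higher. Of 16 compared, 4 were called (25% against 5.16% of all genes) and none was lower, 14 differences were above 0 and the median was 0.99, or 0.18 with the GFP libraries joined to the poor set. The 4 were Nupr1 (2.67-fold), Ppp1r15a (2.97-fold), Cebpb (2.14-fold) and Psat1 (3.41-fold), which code for a stress-induced nuclear protein, a phosphatase subunit, a transcription factor and an enzyme of serine synthesis. For Nupr1 the GFP libraries, at 120 to 542 CPM, were above both sets, and with them in the poor set its difference was -0.16. No gene was called among 13 immediate early genes (median 0.83), 11 heat shock chaperones (0.19), 17 interferon response genes (0.23), 18 Müller glia genes (0.63) or 19 ribbon synapse genes (0.14). Of 9 cell cycle genes Cenpa alone was called, 8.66-fold higher. Over all genes compared 7.44% were called, so lists of 9 to 19 genes would hold few calls at that rate.

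**Figure D5:**
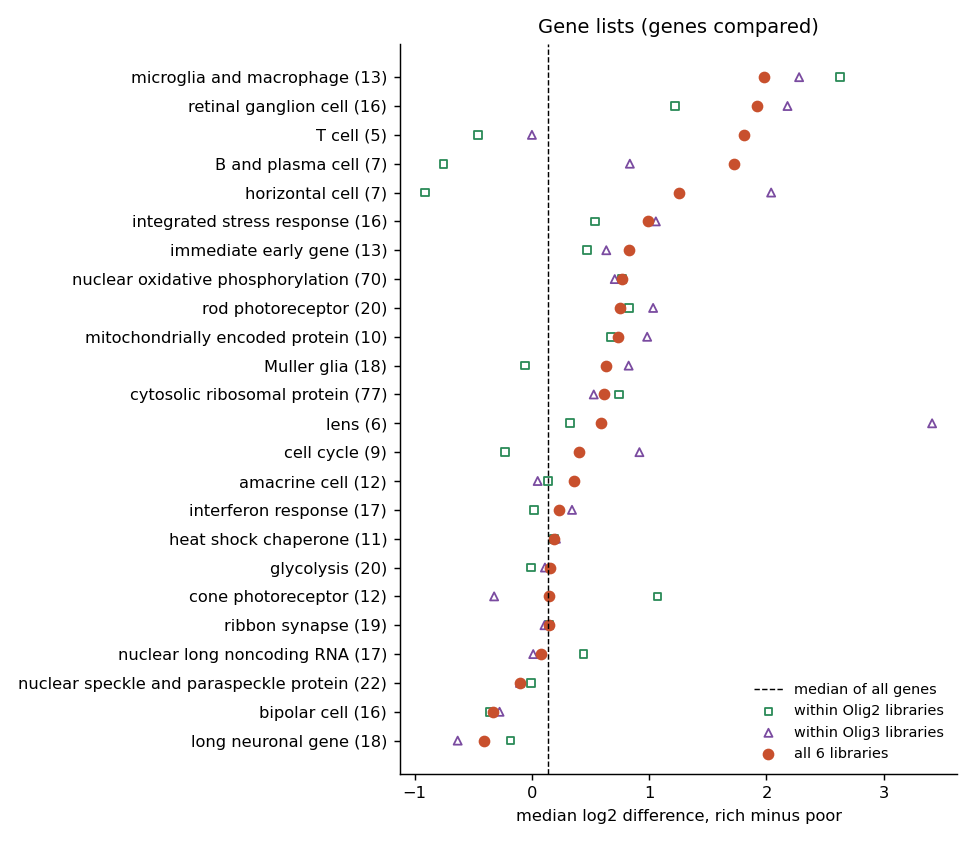
Median log2 difference, rich minus poor, of the gene lists with 5 or more genes compared (number in brackets), over all 6 libraries and within the Olig2 and the Olig3 libraries. The dashed line is the median of all genes, 0.14. The rod, respiratory and ribosomal lists lie at 0.62 to 0.77 with both factors close by, while the horizontal cell list lies at opposite sides of 0 in the 2 factors.

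Some lymphocyte and lens genes were high in 1 factor or in single libraries. Igkc, the immunoglobulin kappa constant region, had 8400 CPM in the poor Olig2 library and 2923 and 3812 in the rich ones, against 0 to 5.72 in the Olig3 libraries. Igha had 1085 CPM in Olig2 replicate 2 and at most 14.7 in the 8 others. Crybb2, a lens crystallin, had 92.9 and 264 CPM in Olig3 replicates 1 and 2 and at most 0.995 in the 4 other factor libraries, and 35.5 to 1366 in the GFP libraries. Mbp, a myelin protein, was highest in Olig3 replicate 3, at 69.8 CPM. None of these genes was called between the sets.

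The comparisons of the labels were tested with the Malat1 set as a term, by edgeR's quasi-likelihood test over 15812 genes and all 9 libraries with Benjamini-Hochberg adjustment. The GFP libraries counted as poor in that term, so a change against GFP is the one fitted for a poor library of the factor. These p-values measure only how far these libraries spread, and that spread may be technical. Olig2 against GFP gave 3 genes (0.019%), all higher, each with an adjusted p of 0.0492. Igkc changed by 9.40 ± 1.16 (SE) on the log2 scale and Jchain, the joining chain of antibodies, by 4.14 ± 0.484. Pcp2, a protein of rod bipolar cells, changed by 1.97 ± 0.242, with 248 to 335 CPM in the Olig2 libraries against 71.0 to 88.2 in the GFP libraries. Pcp2 overlaps Pet100 on the other strand, whose values were close to its own. Without the term 8 genes passed (0.0506%), these 3 among them. With the replicate number as a block 0 passed by edgeR, with 632 at an unadjusted p under 0.05. By DESeq2, with the set term and no such block, 212 passed, 53 higher and 159 lower. With each library left out in turn, 0 to 6 genes passed, and 0 passed without any of the GFP libraries, Olig2 replicate 1 or Olig3 replicates 1 or 2.

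Olig3 against GFP gave 27 genes (0.171%), 13 higher (0.0822%) and 14 lower (0.0885%). The count depended on the model: it was 12 (6 higher, 6 lower) with the log2 share of Malat1 in place of the set, 5 (1 higher, 4 lower) with the replicate number as a block and 1607 (426 higher, 1181 lower) by DESeq2. Junb, a transcription factor of the early response, fell by 2.35 ± 0.229 (adjusted p = 0.0168), with 47.3 to 81.0 CPM in the Olig3 libraries and 227 to 317 in the GFP libraries. H2-D1, a class I histocompatibility gene, fell by 2.14 ± 0.244, and Cabp5, a calcium-binding protein of bipolar cells, rose by 1.97 ± 0.235 (both adjusted p = 0.0273). Each had 3 of 3 Olig3 libraries beyond all GFP libraries. Without the term 32 genes passed (0.202%), 16 of them shared. For Lamp5 the change was 2.19 ± 0.297 with the term (adjusted p = 0.0295) and 1.79 ± 0.611 without it (adjusted p = 0.293). Its Olig3 libraries had 295 and 448 CPM in the poor set and 88.8 in the rich one. Lamp5 was among the genes picked for their gap between the sets, so its smaller SE with the term is in part fixed by that choice. The count was 0 without GFP replicate 3 or without either rich Olig2 library, 2 and 3 without the other GFP libraries, 12 and 7 without the poor Olig3 libraries, and 123 and 139 without Olig2 replicate 1 and Olig3 replicate 2.

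Olig3 against Olig2 gave 3 genes (0.019%), all lower, each with an adjusted p of 0.0313: H2-D1 (-2.17 ± 0.242), Igkc (-10.64 ± 1.21) and Tgtp2, an interferon-induced GTPase (-9.83 ± 1.15). H2-D1 had 200 to 315 CPM in the Olig3 libraries and 1112 to 1681 in the Olig2 libraries, in both sets alike. Without the term 6 genes passed (0.0379%), these 3 among them. With the replicate number as a block 6 passed, all lower. By DESeq2, with the set term and no such block, 76 passed, 7 higher and 69 lower. With each library left out the count was 0 to 5, and it was 0 or 1 without any GFP library, Olig2 replicate 1 or Olig3 replicate 1.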

How the data were processed

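Per the submitters' processing notes, FastQC, HISAT2 and HTSeq were used on mm10. Their versions, filters and strand setting are not given in these sources. The deposited table holds whole-number counts of reads per gene, not normalized. Of its 50764 genes 50712 matched GENCODE release M21. CPM were scaled by TMM factors of edgeR 4.0.16 (R 4.3.3), computed without Malat1 and Gm37376, and log2 values used a prior count of 2. A fold is a ratio of mean CPM, a bound uses a floor of 3 counts over the set, and ± is the SD unless SE is written. The members and all 30 gene lists (594 of 596 symbols in the table) were chosen with earlier results of these data known. Named genes are the 15 per direction with the widest gap between the sets, leaving out predicted symbols, then up to 4 called (otherwise up to 2 uncalled) members of each list, and the label comparisons' strongest genes. Gnat1, Pdc, Rcvrn, Prph2, Rp1, Slc24a1, Pde6b, Gap43, Nefl, Rbpms, Pou4f2, Tmem119, Tyrobp, Itgam, P2ry12, mt-Nd5, Aldoa, Pkm, Neat1, Tgtp2 and the other genes outside that rule were chosen after their values were seen. Values of 1 list member are not reported here. Label comparisons used edgeR's quasi-likelihood test, with DESeq2 1.42.0 as an alternative. It was tested on simulated data.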

Additional observations from a re-analysis of the deposited data

Results flagged for a closer look

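In 5 of the 30 gene lists the rich and poor libraries did not overlap within either factor, with opposite directions in Olig2 and Olig3. Each factor has 3 libraries, with 2 rich and 1 poor for Olig2 and 1 rich and 2 poor for Olig3, so this was not tested. A single library often lies outside 2 others by arrangement alone, so some such lists would arise whatever the set. Rich minus poor, the summed CPM of horizontal cell genes was -1053 within Olig2 and 397 within Olig3, that of T cell genes -48.7 and 12.1, and that of granulocyte genes -93.9 and 105. Cell cycle genes gave -83.6 and 193. Nuclear long noncoding RNAs went the other way, with 997 within Olig2 and -352 within Olig3.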

How the results depend on the processing

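The counts of genes higher and lower in the rich set (619 and 274) depended on the scaling, 159 and 1201 with library totals and 293 and 659 with totals without Malat1 and Gm37376, but only from 516 to 782 and from 204 to 368 with 4 other scalings. They were 2400 higher with no filter, 1524 at a mean of 1 CPM, 221 and 144 at 20 CPM, 1166 and 937 with no minimum difference and 257 and 37 at a log2 difference of 2. A Malat1 share of 8% as the threshold, which puts Olig2 replicate 3 in the poor set, gave 365 and 112. Of these, 220 and 59 were among the 619 and 274. Fewer libraries gave more calls by construction: 707 to 1651 and 327 to 732 with 1 library left out, 1006 and 756 without the poor Olig3 libraries, 1065 and 756 within Olig2 and 1970 and 881 within Olig3. GFP joined to the poor set gave 169 and 19. Of 70 named called genes, 25 were still called there, 47 of the 58 compared with library totals and 62 to 70 with 1 library left out. At the threshold of 8%, 27 of the 70 were still called. The difference by length (0.46) was 0.39 to 0.51 with 1 library left out, 0.85 with no filter, 0.23 at 1 CPM, 0.68 at 20 CPM, 0.30 at a share of 8% and 0.35 with GFP joined. Of the 30 list medians, 10 kept their sign under every alternative run: rod, mitochondrially encoded, nuclear respiratory, ribosomal protein, microglia, red cell, ganglion cell, immediate early, integrated stress response and long neuronal genes. The other 20 changed it under 1 or more: 11 with library totals, 8 with totals without Malat1 and Gm37376, 10 without the poor Olig3 libraries, 9 within Olig2, 2 within Olig3 and 8 with GFP joined. Among lists whose sums did not overlap between the sets, the changes were those of heat shock chaperones (-0.31 with library totals, -0.11 with totals without Malat1 and Gm37376), glycolysis (-0.34, -0.14 and, within Olig2, -0.010) and bipolar cells (0.24 with GFP joined), and the difference of Nupr1 was -0.16 with GFP joined. The cause was not tested.

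The label comparisons with the set term, in the order used above (each factor against GFP, then the factors against each other), gave 3, 27 and 3 genes. Without the term they gave 8, 32 and 6, and with the log2 share of Malat1 in its place 4, 12 and 3. They gave 189, 916 and 132 genes with no filter, and 212, 1607 and 76 by DESeq2, against 1061, 2762 and 601 at an unadjusted p under 0.05 by edgeR. With 1 library left out the ranges were 0 to 6, 0 to 139 and 0 to 5. Adding the replicate number (replicate block) gave 0, 5 and 6 genes. The pairing of equal numbers was checked between groups by a further correlation, not by the r of log2 CPM given above. In it the 9 same-numbered pairs had values of -0.0758 to 0.0798, and pairs with unlike numbers -0.0830 to 0.0776. By that measure equal numbers did not pair the libraries, and 2 of 9 libraries correlated best with their own number.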
